A study of Mus musculus with 12 samples.

Results

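The comparison set 3 libraries of mouse leukaemia cells treated with the MEK inhibitor PD325901 against 3 libraries of the same cells treated with the mTOR inhibitor RAD001, 6 of the 12 libraries of the series. Its members were all genes that averaged 1 FPKM or more over these 6 libraries (FPKM counts fragments per length of transcript, scaled to a fixed total), 10258 of the 23234 genes in the table. Psap and Fth1 were left out, since each was listed at 0 in every library of 1 of the groups and at 2480.0 FPKM or more in every library of the other. The cells were primary acute myeloid leukaemia (AML) cells of (FVB/n X C57/BL/6J) F1 mice with the genotype NRASG12V/Mll-AF9, that is, an activated NRAS together with a fusion of Mll to AF9, and all groups shared this genotype. They were kept for 24 h in RPMI medium with serum and the growth factor GM-CSF, together with 20 µM PD325901, 26 µM RAD001, 20 µM GDC0941 (an inhibitor of PI3 kinases) or the vehicle DMSO, with 3 libraries per group. The doses differed and the labels give no match of potency, so each difference compares these treatments as given. No label says whether the libraries of a group came from separate cultures or animals, so p-values measure only the spread between these samples.

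RAS proteins pass growth signals to the kinases RAF, MEK and ERK, and ERK acts on transcription by phosphorylating factors of the ETS, AP-1 and MYC families. Its early targets include phosphatases and Sprouty-like proteins that dampen the same pathway. The mTOR kinase, in the complex that contains raptor, responds to PI3 kinase and to amino acids, and drives protein synthesis and ribosome production while holding back autophagy. RAD001 (everolimus) binds the protein FKBP12, the product of Fkbp1a, and the pair binds mTOR. PD325901 binds MEK1 and MEK2, the products of Map2k1 and Map2k2. In myeloid leukaemia both pathways lie downstream of NRAS.

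By limma with Benjamini-Hochberg adjustment over all genes tested, 5193 of 10258 genes (50.6%) differed between the treatments at an adjusted p under 0.05. Of all genes tested, 2175 (21.2%) were higher with PD325901 and 3018 (29.4%) were higher with RAD001. The counts given below for each gene list are to be read against these shares. List members under 1 FPKM in every library of 1 group passed the filter only through the other group, which favours that other direction in the counts. Differences are given as PD325901 minus RAD001 on the scale of log2(FPKM + 1), with the SE of the limma fit, so a negative value means a higher level with RAD001. Adding 1 FPKM understates the difference of low genes. A difference of at least 1 on this scale was called for 1226 genes, 532 higher with PD325901 and 694 higher with RAD001. The extremes were lopsided, with 74 genes higher with RAD001 by at least 3 and 25 genes higher with PD325901 by as much. The median difference over all genes tested was -0.06.

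**Figure D1:**
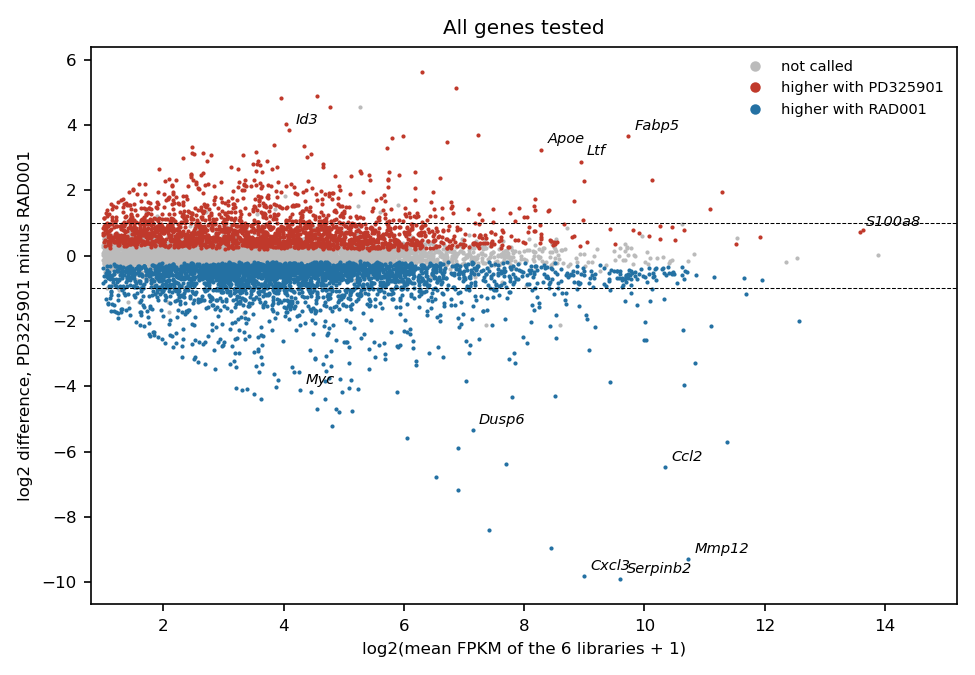
Log2 difference between PD325901 and RAD001 for each of the 10258 genes tested, against the log2 of the mean FPKM of the 6 libraries plus 1. Colours give the calls at an adjusted p under 0.05 and dashed lines mark differences of 1. The cloud reaches from -9.89 (Serpinb2) to 5.61 (Klk1b11), and the labelled genes were picked with their values known.

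The libraries of a treatment resembled each other more than those of the other treatment. Spearman correlations across the genes tested were 0.985 to 0.994 within PD325901, 0.970 to 0.996 within RAD001 and 0.874 to 0.907 between them. The lower values within each group were those of its replicate 1. With replicate 1 left out of every group, 5898 of 10221 genes (57.7%) differed. Depth was unknown, since the values were FPKM, which summed to 462335 to 587581 per library. Myeloid identity was plain in both groups: Csf1r, the receptor of the macrophage growth factor, was at 240 to 248 FPKM with PD325901 and 227 to 312 FPKM with RAD001. Cd68, a lysosomal protein of macrophages, was at 778 to 1201 FPKM with PD325901 and 666 to 725 FPKM with RAD001. Lyz2, the lysozyme gene of macrophages, was listed at 0 in all 6 libraries. In bulk libraries fewer cells of a kind and less RNA per cell cannot be told apart. Among markers of other lineages, the B cell factors Pax5 and Ebf1 were listed at 0 throughout. The T cell receptor complex gene Cd3d reached 4.40 FPKM with PD325901 and 0.837 FPKM with RAD001, where Cd3g reached 0.964 FPKM. Higher levels were those of the platelet gene Pf4, at 215 to 278 FPKM with RAD001 and 10.1 to 34.4 FPKM with PD325901, and Gata2, a factor of stem cells and mast cells, at 37.6 to 88.3 FPKM with RAD001.

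The DMSO libraries, treated with the vehicle, lay between the treatments for many of the larger differences. Among genes that differed by at least 1 and whose groups did not overlap, all 3 DMSO libraries lay between the treatments for 255 of 531 genes higher with PD325901 (48%) and for 337 of 693 genes higher with RAD001 (48.6%). Over all genes tested whose groups did not overlap, the same held for 523 of 2746 (19%) and 782 of 3677 (21.3%). Of the larger differences, DMSO lay above both treatments for 18 genes higher with PD325901 (3.39%) and 28 genes higher with RAD001 (4.04%). It lay below both for 8 (1.51%) and 9 (1.3%). The rest overlapped 1 or both groups. Over all genes tested whose groups did not overlap, DMSO lay above both for 7.32% and 12.3% and below both for 9.47% and 4.7%. The GDC0941 libraries lay between the treatments for 155 (29.2%) and 190 (27.4%) of the same 531 and 693 genes. Over all genes tested whose groups did not overlap, this held for 318 of 2746 (11.6%) and 343 of 3677 (9.33%). A wider gap between the groups leaves more room for values inside it, so larger differences favour the position between by construction. The higher shares among them are thus not read as a result. These positions are descriptions with no test.

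Genes whose transcription follows ERK activity were lower with PD325901 than with RAD001 in nearly all tested members of their list. That list was chosen with earlier results of these data known. Of 27 such genes 19 passed the filter on level, and of these 18 were higher with RAD001 and 0 higher with PD325901, with a median difference of -2.43 against -0.06 over all genes. Etv5, Epha2 and Fosl1 were under 1 FPKM in every PD325901 library and passed the filter through the RAD001 libraries. The count thus partly reflects the filter. The members not tested, Spry4 and Etv4 among them, reached at most 2.49 FPKM (Spred3) in these libraries. Dusp6, the phosphatase that dephosphorylates ERK, was at 5.24, 6.67 and 5.63 FPKM with PD325901 and at 285, 280.5 and 259 FPKM with RAD001. The groups lay far apart, and the DMSO mean of 87.7 ± 26.9 FPKM (SD, n = 3) fell between them (log2 difference -5.34 ± 0.17, adjusted p = 6.5e-09 by limma). Etv5, an ETS family transcription factor, was at 0.127, 0.0731 and 0.0418 FPKM with PD325901 and at 19.1, 17.5 and 16.3 FPKM with RAD001 (log2 difference -4.11 ± 0.19). Here the RAD001 libraries overlapped those of DMSO, so the gap lay on the PD325901 side. Spred1, an inhibitor of RAS signalling to ERK, was at 1.64, 2.06 and 2.45 FPKM against 32.8, 32.4 and 28.2 FPKM, with DMSO between (log2 difference -3.40 ± 0.19). The ephrin receptor gene Epha2 differed by -2.17, from 0.0463, 0.266 and 0.203 FPKM with PD325901 to 4.14, 4.08 and 4.54 FPKM with RAD001. The single member tested that was not called, Sh2b3, an adaptor that restrains cytokine receptors, differed by -0.18, a gene picked out with its value known.

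Ccnd1 and Myc link growth signals to the cell cycle and to biosynthesis. Myc was at 1.20, 1.17 and 0.962 FPKM with PD325901 and at 32.1, 39.1 and 35.2 FPKM with RAD001 (log2 difference -4.11 ± 0.10, adjusted p = 1.1e-09 by limma). Its 3 PD325901 libraries were all near 1 FPKM, and DMSO lay between at 22.5 ± 2.84 FPKM (SD, n = 3). Cyclin D1 transcripts (Ccnd1) were at 3.89, 2.69 and 3.05 FPKM with PD325901 and at 109, 44.7 and 39.8 FPKM with RAD001, while DMSO at 161 ± 26.2 FPKM (SD, n = 3) lay above both (log2 difference -3.82 ± 0.43). RAD001 replicate 1 held the highest of the RAD001 values for this gene. In the Myc and MAX network 4 of 11 members were higher with PD325901 and 3 higher with RAD001. The related factor Mycl1, at 1.69, 2.41 and 2.05 FPKM with PD325901 and 0.392, 0.434 and 0.233 FPKM with RAD001, went the other way from Myc (log2 difference 1.17 ± 0.12). Max, the partner of MYC, and Mxd4, a repressor that competes for Max, were higher with PD325901 by 0.65 and 0.99.

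Of 18 immediate early factors of the AP-1 and EGR families, all tested, 12 were higher with RAD001 and 1 higher with PD325901, with a median of -0.98. Egr1, a zinc finger factor induced within minutes of growth factor signals, was at 0.400, 0.530 and 0.439 FPKM with PD325901 and at 62.6, 53.5 and 43.4 FPKM with RAD001 (log2 difference -5.20 ± 0.23, adjusted p = 4.3e-08 by limma). Fosl1, which encodes the AP-1 subunit FRA1, was at 0.0392, 0.0451 and 0.0699 FPKM against 15.1, 19.4 and 15.1 FPKM (log2 difference -4.05 ± 0.23). DMSO lay between the groups for both genes. Egr2, Egr3 and the small Maf factor Maff differed by -3.83, -3.32 and -2.25. The genes of Fos and Jun themselves were not called, at -1.15 and -0.19, and Atf3, a stress-induced repressor, was the member higher with PD325901 (0.85), all 3 picked out with their values known.

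Of the CXC chemokines, secreted attractants of leukocytes, 7 of 12 were tested, 5 were higher with RAD001 and 0 higher with PD325901 (median -3.85). Cxcl3, Cxcl2, Cxcl5 and Ppbp were under 1 FPKM in every PD325901 library, so they passed the filter through the RAD001 libraries. The filter thus favoured that direction, and no result is drawn from the count or the median. The members not tested reached at most 2.08 FPKM (Cxcl14) in these libraries. Cxcl3, which attracts neutrophils, was at 0.114, 0 and 0.200 FPKM with PD325901 and at 716, 1232 and 1102 FPKM with RAD001 (log2 difference -9.81 ± 0.47, adjusted p = 6.9e-08 by limma). The DMSO mean was 9.39 ± 8.91 FPKM (SD, n = 3), between the 2 treatments. Cxcl2, of the same family, was at 0.645, 0.594 and 0.510 FPKM against 315, 157 and 234 FPKM (log2 difference -7.17 ± 0.64), and Cxcl5 was at 0.0349, 0 and 0 FPKM against 8.25, 5.62 and 9.79 FPKM (log2 difference -3.11 ± 0.16). Ppbp, the precursor of a platelet chemokine, was at 0.842, 0.596 and 0.568 FPKM with PD325901 and 201, 182 and 167 FPKM with RAD001 (log2 difference -6.79 ± 0.22). Its GDC0941 mean of 0.615 ± 0.0961 FPKM (SD, n = 3) resembled the PD325901 level rather than the RAD001 level. Pf4, or platelet factor 4, differed by -3.85. Of the other megakaryocyte markers, 7 were under 1 FPKM in every library of both groups, and Vwf was higher with PD325901 (log2 difference 1.58 ± 0.26).

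Of the CC chemokines 11 of 13 were tested, 7 were higher with RAD001 and 1, Ccl5, was higher with PD325901 (median -3.18). In a fit with the replicate number as a block (replicate block) 3 were higher with PD325901, as were 4 with replicate 1 left out of every group and 2 without PD325901 replicate 1 or RAD001 replicate 1. The monocyte attractant Ccl2 was at 47.5, 27.5 and 16.2 FPKM with PD325901 and at 2719, 2712 and 2243 FPKM with RAD001 (log2 difference -6.47 ± 0.32). RAD001 libraries overlapped DMSO for Ccl2, and for its neighbour in function Ccl7 DMSO was above both treatments, at 974 ± 153 FPKM (SD, n = 3) against 631, 336 and 263 FPKM with RAD001 and 7.66, 2.72 and 1.99 FPKM with PD325901. Ccl9 and Ccl6, chemokines of mouse macrophages, had DMSO in the middle. Ccl9 was at 75.6, 91.7 and 92.5 FPKM against 1491, 1248 and 1142 FPKM (log2 difference -3.88 ± 0.15), and Ccl6 at 309.8, 339 and 372 FPKM against 3333, 3503 and 3133 FPKM (log2 difference -3.29 ± 0.18). The inflammatory chemokine Ccl4 differed by -4.33.

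Genes of NF-kB feedback and of the IL-1 and TNF families were higher with RAD001 in 15 of 25 members tested and higher with PD325901 in 0 (median -0.72). The PD325901 count was 3 with library weights and 1 after quantile normalization. It was also 1 without PD325901 replicate 1, without RAD001 replicate 1 or with replicate 1 left out of every group. Tnfsf9, the ligand of 4-1BB, a costimulatory receptor on T cells, was at 1.11, 1.79 and 1.60 FPKM with PD325901 and 74.0, 75.3 and 52.1 FPKM with RAD001 (log2 difference -4.76 ± 0.19, adjusted p = 2.1e-08 by limma). Ptgs2, the inducible cyclooxygenase, was at 0.102, 0.117 and 0.0896 FPKM against 12.5, 7.09 and 8.13 FPKM (log2 difference -3.18 ± 0.32). Il1rn, which encodes the antagonist of the IL-1 receptor, was at 23.3, 17.0 and 18.1 FPKM against 253, 158 and 129 FPKM (log2 difference -3.10 ± 0.38). All 3 groups of values were apart, with DMSO between. Tnf itself and the NF-kB inhibitor gene Nfkbie differed by -2.68 and -1.85. Nfkb1 and Rel, subunits of NF-kB, were not called, at 0.10 and 0.10, and were picked out with their values known.

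Secreted proteases and their regulators held 3 of the largest differences. Of 20 genes on this list 15 were tested, 12 were higher with RAD001 and 1, the protease inhibitor gene Timp2, was higher with PD325901, or 2 were with replicate 1 left out of every group (median -2.58). Serpinb2, an inhibitor of plasminogen activators, was at 0.640, 0.782 and 0.483 FPKM with PD325901 and at 1633, 1588 and 1432 FPKM with RAD001 (log2 difference -9.89 ± 0.32, adjusted p = 6.5e-09 by limma). Mmp12, macrophage elastase, was at 3.85, 4.82 and 4.56 FPKM against 3866, 3256 and 3017 FPKM (log2 difference -9.28 ± 0.21, adjusted p = 6.6e-10 by limma). For Serpinb2 the GDC0941 mean, 17.4 ± 6.81 FPKM (SD, n = 3), resembled that of DMSO, 18.9 ± 11.3 FPKM, whereas for Mmp12 GDC0941 was at 3808 ± 468 FPKM and DMSO at 308 ± 100.2 FPKM. Mmp13, a collagenase, was at 0.487, 0.240 and 0.346 FPKM with PD325901 and 461, 847 and 772 FPKM with RAD001 (log2 difference -8.95 ± 0.26). Adam8, a membrane protease of leukocytes, was at 144, 126 and 112 FPKM against 939, 960.2 and 948 FPKM (log2 difference -2.89 ± 0.12). The urokinase receptor gene Plaur differed by -2.17, with DMSO overlapping PD325901. Spp1, which encodes osteopontin, was at 149.8, 63.8 and 72.3 FPKM against 8814, 3526 and 3321 FPKM (log2 difference -5.71 ± 0.69), with replicate 1 the highest library in both groups. The surface glycoprotein gene Pdpn, at -5.60, completed the matrix-related genes among the 15 largest.

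The upstream bases shown are those of Cxcl3 and Mmp13, the largest differences in this direction with a single start in the promoter table. The genes searched were taken by the size of the difference, and these 2 hold motifs of transcription factors named above. The sequences are those of RefSeq on the build GRCm38.p6, matched by symbol, since the deposited table has no positions and was made on another build. Each is the 200 bases before the annotated start, on the plus strand and 5′ to 3′, at chr5:90785901-90786100 for Cxcl3 and chr9:7272314-7272513 for Mmp13. Capitals mark matches to the motifs searched on both strands, with N for any base: TGANTCA for AP-1, CCGGAAG for ETS factors, CACGTG for the E-box bound by MYC and MAX among others, and GGANTTTCC for NF-kB.
Cxcl3: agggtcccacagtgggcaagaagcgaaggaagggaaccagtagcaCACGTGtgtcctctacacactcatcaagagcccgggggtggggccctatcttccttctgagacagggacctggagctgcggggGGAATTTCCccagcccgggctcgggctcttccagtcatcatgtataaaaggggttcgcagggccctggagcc
Mmp13: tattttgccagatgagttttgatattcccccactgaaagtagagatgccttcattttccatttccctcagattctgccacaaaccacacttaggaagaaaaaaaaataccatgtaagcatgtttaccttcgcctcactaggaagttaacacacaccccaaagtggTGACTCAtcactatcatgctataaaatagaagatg
The Cxcl3 bases hold 1 E-box, beginning 155 bases before the start, and 1 NF-kB motif beginning 72 bases before it. In Mmp13 the AP-1 motif begins 35 bases before the start. Of the 27025 genes in the promoter table, with windows from 250 bases before to 50 bases after the start, 8.97% held the AP-1 motif, 9.93% the ETS motif, 8.09% the E-box and 1.45% the NF-kB motif. Klk1b11 and Fabp3, the largest differences in the other direction with a single start there, held none of the 4 motifs in their first 200 bases upstream. These matches are descriptions of letters, not of binding. Shares among the genes that differed by at least 1 are not given, because an entry was found for only 79.5% of those higher with PD325901 and 76.9% of those higher with RAD001, under the 80% set as a minimum.

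The 15 largest differences in the direction of PD325901 included 3 genes of fatty acid binding proteins. Fabp5, an abundant fatty acid binding protein of macrophages, was at 2205, 1212 and 1333 FPKM with PD325901 and 125, 126 and 111 FPKM with RAD001 (log2 difference 3.66 ± 0.29, adjusted p = 2.4e-06 by limma). Fabp4 was at 360.0, 155 and 164 FPKM against 10.8, 3.31 and 3.22 FPKM (log2 difference 5.14 ± 0.69), and Fabp3 at 59.1, 35.5 and 38.5 FPKM against 0.886, 0.622 and 0.104 FPKM (log2 difference 4.88 ± 0.24). Replicate 1 was the highest PD325901 library for all 3, and no PD325901 library overlapped a RAD001 library. Gpx3, a secreted glutathione peroxidase, was at 69.9, 42.7 and 42.3 FPKM against 1.18, 1.36 and 1.10 FPKM (log2 difference 4.53 ± 0.18). The carbonyl reductase gene Cbr2 was at 42.6, 23.0 and 22.0 FPKM with PD325901 and at 0, 0 and 0.0571 FPKM with RAD001 (log2 difference 4.82 ± 0.28). The plasma selenoprotein gene Sepp1 (3.69), the coagulation factor gene F13a1 (3.67) and the lysosomal amidase gene Naaa (3.46) were higher with PD325901 as well. Id3, an inhibitor of basic helix-loop-helix factors, was at 29.8, 31.0 and 31.9 FPKM against 0.617, 1.55 and 1.68 FPKM (log2 difference 3.84 ± 0.39). Fam26f, Tmem37 and Cd300lg, which encode membrane proteins, differed by 3.40, 3.36 and 3.33. Klk1b11, a kallikrein, had the largest value of this direction (log2 difference 5.61 ± 0.44), but near-identical relatives in its family make its assignment uncertain. DMSO lay between the treatments for 11 of these 15 genes, and for 10 of the 15 largest in the other direction.

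**Figure D2:**
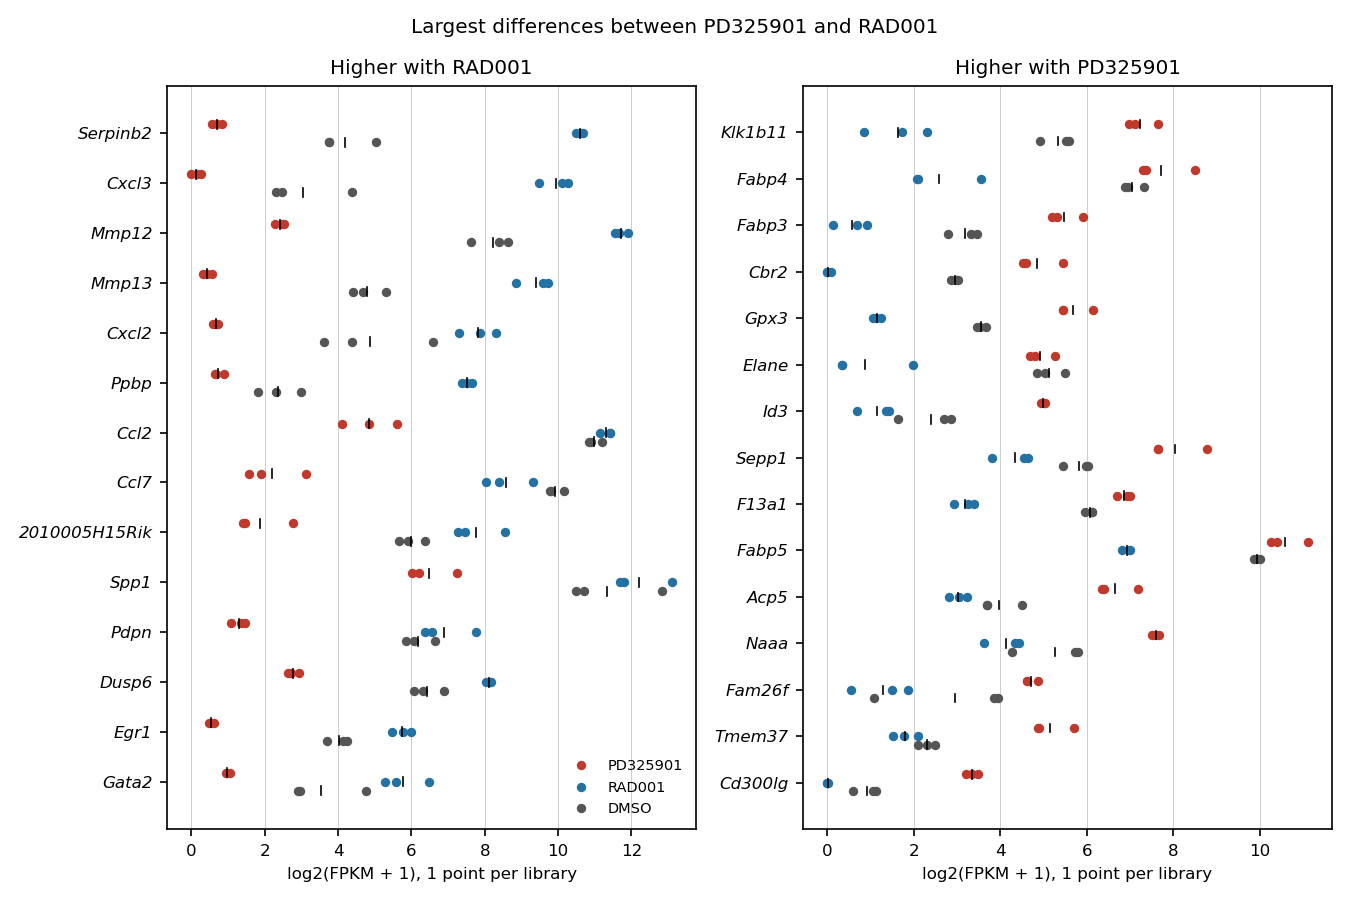
Level of the largest differences in each library, as log2(FPKM + 1), with 1 point per library and a black bar at the mean of each group of 3. Left, genes higher with RAD001, without Snora64; right, genes higher with PD325901. PD325901 and RAD001 points do not overlap for any gene shown, and DMSO points mostly sit between them.

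The 15 largest in the direction of RAD001 also held Gata2 and a small nucleolar RNA. Gata2 was at 0.964, 0.913 and 1.06 FPKM with PD325901 and 88.3, 47.0 and 37.6 FPKM with RAD001 (log2 difference -4.79 ± 0.52). The mast cell protease genes Tpsb2, Mcpt4 and Cma1 were under 1 FPKM in every library of both groups. Cpa3, a carboxypeptidase of mast cells, was at 2.16 to 2.88 FPKM with PD325901 and 1.20 to 3.97 FPKM with RAD001, and Prg2, which encodes the major basic protein of eosinophils, at 1.33 to 2.11 FPKM and 0.365 to 7.45 FPKM. The basophil protease Mcpt8 was higher with PD325901 (log2 difference 1.47 ± 0.34). Summed over the 12 mast cell, basophil and eosinophil markers, Gata2 among them, the level ran from 10.3 to 11.1 FPKM with PD325901 and from 39.7 to 102 FPKM with RAD001. Gata2 alone was at 37.6 to 88.3 FPKM with RAD001, so the higher sum was mostly that of Gata2 and not of the other markers. 2010005H15Rik was at 5.79, 1.76 and 1.64 FPKM against 375, 177 and 153 FPKM (log2 difference -5.89 ± 0.40). Snora64, a small nucleolar RNA, had a listed value of 0 in the PD325901 libraries and 425, 298 and 299 FPKM with RAD001. With DMSO it was listed at 0, 362 and 339 FPKM, so the 0 also occurred beside high values within a group. Because a listed 0 can be a failed estimate in such a table, no fold is given for Snora64.

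The list named for primary granule genes, made by promyelocytes, also holds genes of other kinds, such as Cebpa, Cebpe, Myb and Ms4a3. Of its members 13 of 15 were tested, 10 were higher with PD325901 and 0 higher with RAD001, with a median of 1.36. Neutrophil elastase (Elane) was at 37.3, 26.8 and 24.7 FPKM with PD325901 and 2.95, 0.258 and 0.260 FPKM with RAD001 (log2 difference 4.03 ± 0.37, adjusted p = 7.3e-06 by limma). PD325901 overlapped DMSO at 34.6 ± 8.60 FPKM (SD, n = 3), so the gap lay on the RAD001 side, where replicate 1 was the highest library. The regulators of granulocyte genes Cebpa and Cebpe differed by 1.64 and 1.36. For Cebpa it was RAD001 that overlapped DMSO, at 32.7, 48.7 and 43.2 FPKM against 151, 115 and 127 FPKM with PD325901. Myb, a factor of progenitor cells, and Ms4a3, a marker of their granulocyte and monocyte branch, were higher with PD325901 by 1.11 and 2.02, with DMSO above both.

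Later neutrophil genes went both ways, 14 of 29 tested higher with PD325901 and 6 higher with RAD001 (median 0.28). With a replicate block 10 were higher with RAD001, and with replicate 1 left out of every group 12 were. The median was 0.51 without RAD001 replicate 1 and 0.10 with replicate 1 left out of every group. Chi3l3, the chitinase-like protein YM1, was at 983, 738 and 783 FPKM with PD325901 and 106, 216 and 217 FPKM with RAD001 (log2 difference 2.27 ± 0.27). Lactoferrin (Ltf), cathelicidin (Camp) and the neutrophilic granule protein gene Ngp differed by 2.88, 2.32 and 1.95, and were picked out with their values known. The G-CSF receptor gene Csf3r was at 111, 106 and 98.4 FPKM against 43.6, 38.1 and 44.0 FPKM, with DMSO below both (log2 difference 1.31 ± 0.12). Neutrophil collagenase (Mmp8) was at 321, 279 and 295 FPKM against 1525, 1961 and 1907 FPKM (log2 difference -2.58 ± 0.22). The formyl peptide receptor gene Fpr2 differed by -1.80.

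Monocyte and macrophage markers were higher with RAD001 in 12 of 30 members tested and higher with PD325901 in 4, against 29.4% and 21.2% of all genes. Their median was -0.09, against -0.06 over all genes, or -0.30 without RAD001 replicate 1. The PD325901 count was 7 with a replicate block or with replicate 1 left out of every group, and 8 after quantile normalization. The RAD001 count was 16 without RAD001 replicate 1 or with replicate 1 left out of every group, and 18 with library weights. The endotoxin co-receptor gene Cd14 was at 39.1, 32.0 and 30.7 FPKM with PD325901 and 921, 594 and 579.6 FPKM with RAD001 (log2 difference -4.30 ± 0.27, adjusted p = 5.6e-07 by limma). The scavenger receptor gene Msr1 was at 34.6, 45.6 and 47.0 FPKM against 346, 467 and 444 FPKM (log2 difference -3.28 ± 0.15). Both had DMSO between, as did the integrin gene Itgam, at 227, 226 and 230.0 FPKM against 789, 832 and 813 FPKM (log2 difference -1.83 ± 0.08). The Fc receptor gene Fcgr3 and the lectin receptor gene Clec4n differed by -1.55 and -2.03. Mertk, a receptor for apoptotic cells, went the other way at 27.8, 16.7 and 16.1 FPKM with PD325901 and 0.892, 2.91 and 2.60 FPKM with RAD001 (log2 difference 2.78 ± 0.27) and was picked out with its value known. Summed over the list, the markers ran from 6087 to 6355 FPKM with PD325901 and from 8068 to 10249.9 FPKM with RAD001. The part of cell composition in these differences was not tested.

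**Figure D3:**
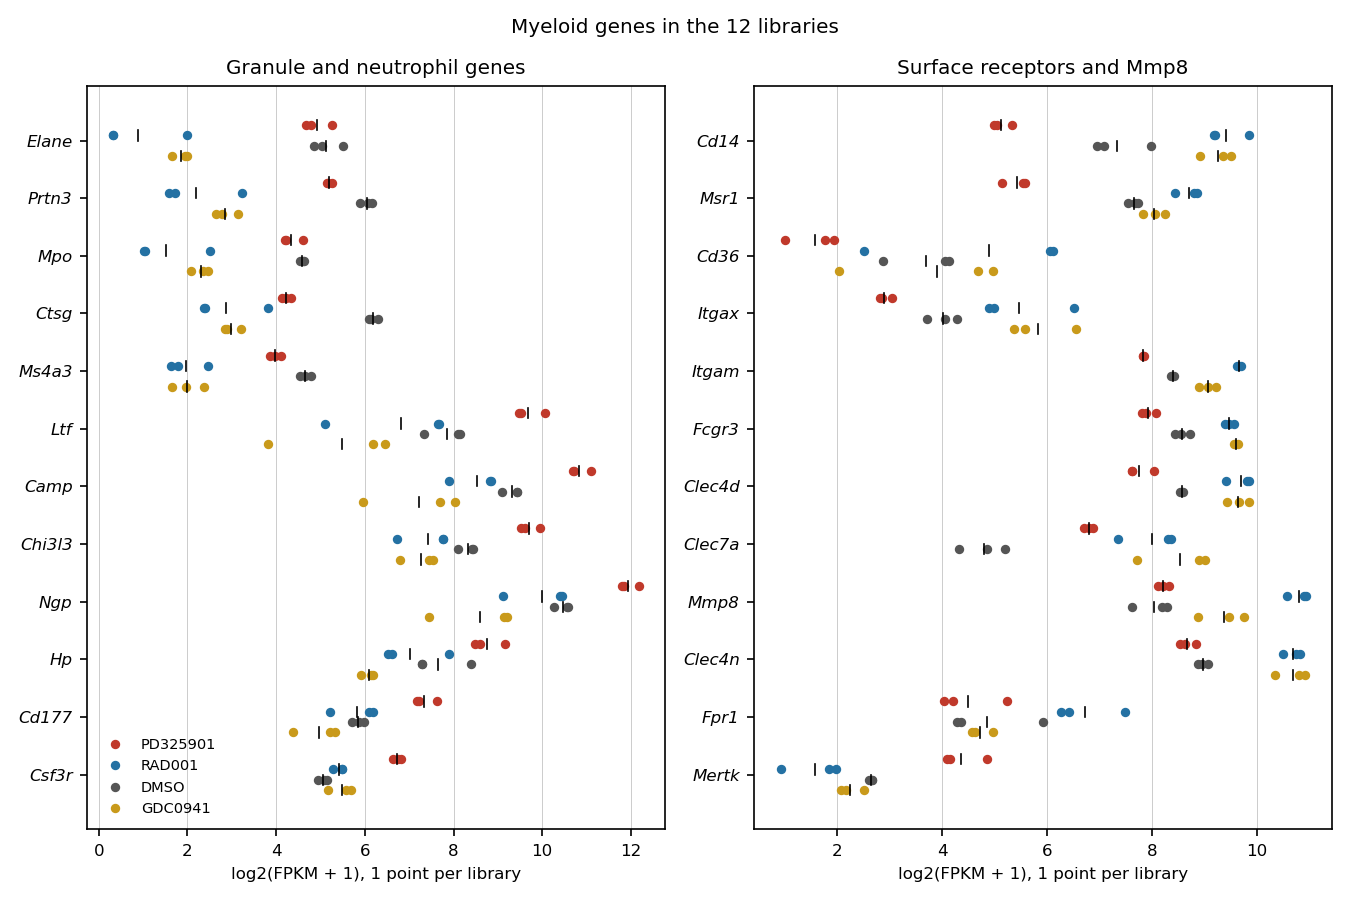
Level of 24 myeloid genes in the 12 libraries, as log2(FPKM + 1), with 1 point per library and a black bar at the mean of each group of 3. Elane, Ltf, Camp and Chi3l3 sit higher with PD325901 than with RAD001, and Cd14, Msr1 and Itgam sit higher with RAD001. The genes were taken from the lists with their values known.

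Osteoclast and fused macrophage genes had 7 of 13 tested members higher with PD325901 and 3 higher with RAD001 (median 0.61, or 0.25 without PD325901 replicate 1). Acp5, tartrate-resistant acid phosphatase, was at 144, 81.1 and 82.6 FPKM against 8.36, 7.31 and 6.02 FPKM (log2 difference 3.61 ± 0.27). Tm7sf4, which encodes DC-STAMP and is needed for fusion, was the reverse at 0.768, 0.515 and 0.673 FPKM with PD325901 and 66.4, 39.0 and 28.1 FPKM with RAD001 (log2 difference -4.70 ± 0.26). The transcription factor gene Nfatc1, the protease gene Ctsk and the chloride channel gene Clcn7 were higher with PD325901 by 0.61, 0.99 and 0.79. Of the MHC class II and dendritic cell genes 9 of 19 were higher with PD325901 and 4 higher with RAD001. Their median was 0.52, or 0.82 without PD325901 replicate 1, 0.35 without PD325901 replicate 3 and 0.93 with replicate 1 left out of every group. The plasmacytoid marker Siglech (1.83), the receptor Flt3 (1.27) and the factor Batf3 (1.46) were on the PD325901 side, and the costimulatory gene Cd80 (-1.39) and the integrin gene Itgax (-2.57) on the RAD001 side. Itgax rested on an uneven RAD001 group, at 91.1, 30.8 and 28.6 FPKM.

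In ribosome biogenesis, a process driven by mTOR, 33 of 34 members tested were higher with RAD001 and 0 with PD325901 (median -0.98). Nop58, a core protein of the particles that methylate ribosomal RNA, was at 6.26, 5.72 and 6.00 FPKM with PD325901 and 28.4, 24.8 and 24.7 FPKM with RAD001 (log2 difference -1.94 ± 0.08, adjusted p = 2.1e-08 by limma). DMSO was above both at 30.5 ± 1.53 FPKM (SD, n = 3). The nucleolar genes Mybbp1a, Nop2, Tsr1 and Ddx21 differed by -1.27, -1.17, -1.34 and -1.09, with RAD001 libraries overlapping those of DMSO. Of 48 cytosolic ribosomal protein genes 45 were higher with RAD001 (median -0.63), or 22 after quantile normalization, when 2 were higher with PD325901. Rpl24 was at 327, 318 and 345 FPKM against 608, 597 and 541 FPKM (log2 difference -0.82 ± 0.08), and Rpl12 at 380.5, 470.4 and 482 FPKM against 1496, 1089.5 and 983 FPKM (log2 difference -1.40 ± 0.15). Ribosomal protein genes have many processed copies in the genome, and the assignment of reads shared with copies is not stated in these sources.

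The same direction held for translation factors, with 27 of 36 higher with RAD001 and 1 higher with PD325901 (median -0.54). The PD325901 count was 2 without PD325901 replicate 1 or with replicate 1 left out of every group. It was 3 with library weights or after quantile normalization, when 20 were higher with RAD001. Eif4a1, the helicase of the cap-binding complex, was at 265, 249 and 262 FPKM with PD325901 and 631, 563 and 521 FPKM with RAD001 (log2 difference -1.14 ± 0.09). The initiation factor genes Eif2b3, Eif3b and Eif4g1 differed by -1.70, -0.95 and -0.76, and the synthetase-complex gene Eef1e1 by -1.63. All 8 subunits of the CCT chaperonin, which folds actin and tubulin, were higher with RAD001 (median -0.81), led by Cct3 at 44.6, 38.0 and 38.6 FPKM against 98.9, 97.8 and 91.6 FPKM (log2 difference -1.23 ± 0.08). Of 20 aminoacyl-tRNA synthetases 10 were higher with RAD001 and 0 higher with PD325901, or 4 with PD325901 after quantile normalization and 3 with replicate 1 left out of every group (median -0.24). The 5 with the smallest p, Hars, Rars, Kars, Eprs and Dars, differed by -0.73, -0.63, -0.59, -0.63 and -0.43, and DMSO was above both treatments for each of them. ER chaperones and genes of the unfolded protein response were higher with RAD001 in 15 of 21 and higher with PD325901 in 1 (median -0.60), or in 0 without RAD001 replicate 2 or RAD001 replicate 3. Creld2 was at 25.3, 20.5 and 19.7 FPKM against 63.8, 64.5 and 61.6 FPKM (log2 difference -1.50 ± 0.12), and the chaperone genes Hyou1, Manf, Pdia4 and Pdia6 differed by -1.39, -1.32, -1.27 and -1.24.

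**Figure D4:**
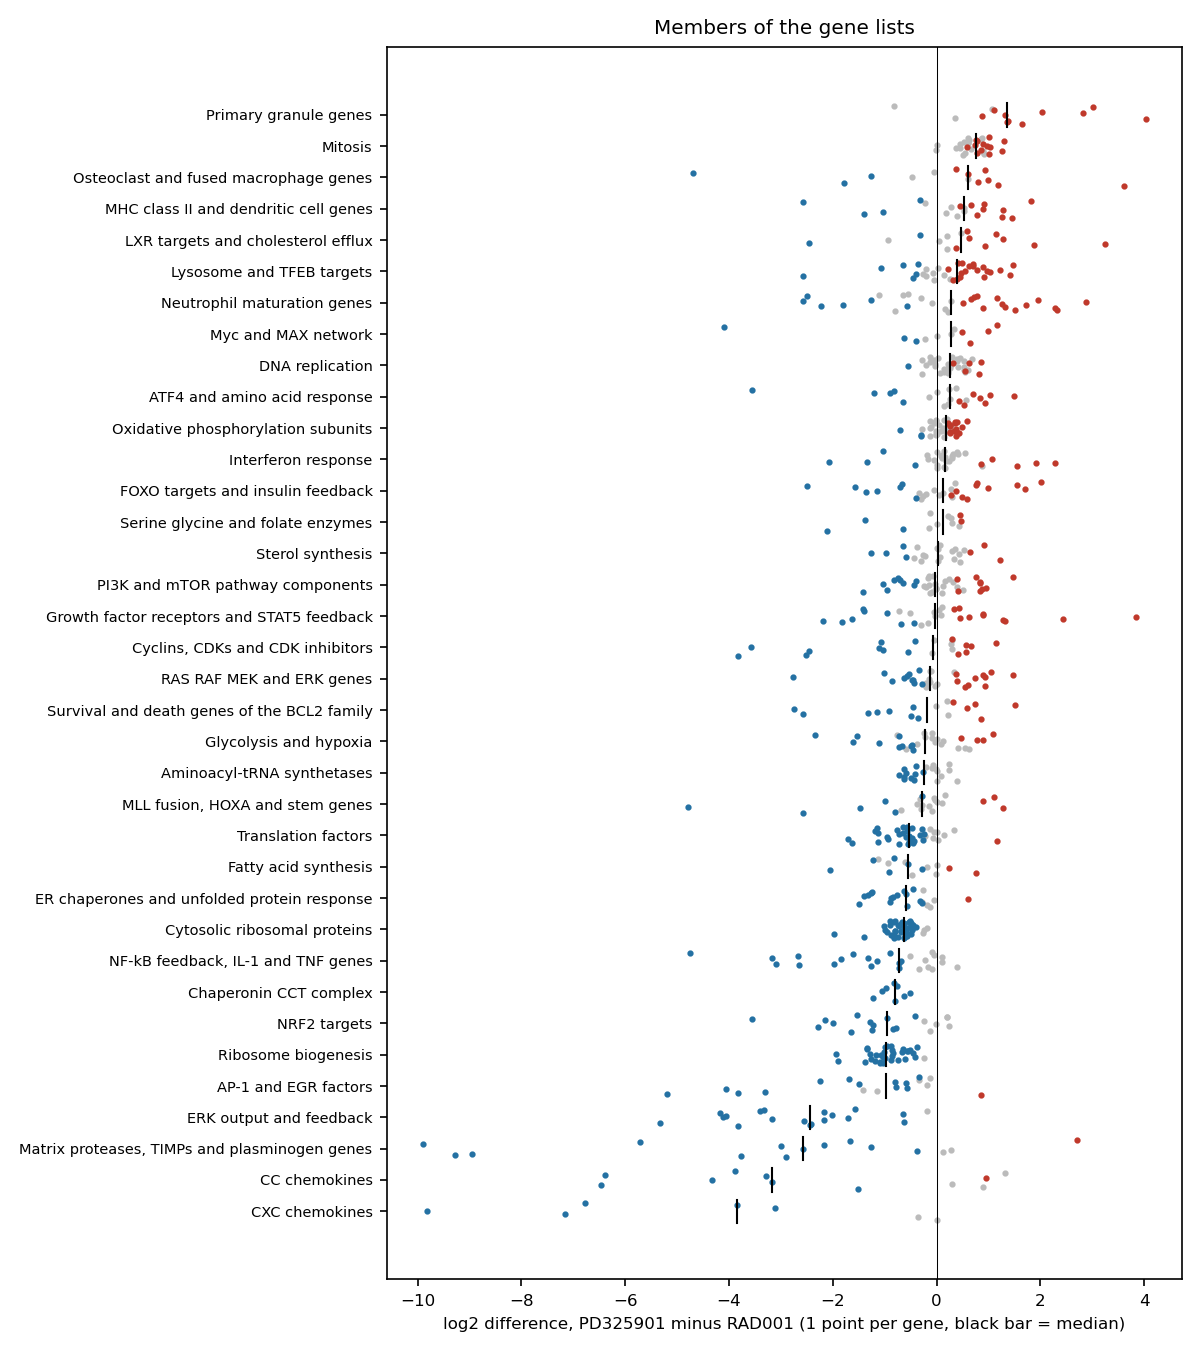
Log2 difference between PD325901 and RAD001 for each tested member of the pathway lists, with 1 point per gene, a black bar at the list's median, red for genes called higher with PD325901, blue for genes called higher with RAD001 and grey for genes not called. Lists run from a median of -3.85 (CXC chemokines) to 1.36 (primary granule genes), and the median of all genes tested was -0.06.

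Targets of NRF2, the factor that responds to oxidants, were higher with RAD001 in 13 of 19 and higher with PD325901 in 0 (median -0.95). The PD325901 count was 3 after quantile normalization, 2 after median-ratio scaling and 1 with library weights or without RAD001 replicate 2. The RAD001 count was 10 after quantile normalization. Hmox1, heme oxygenase, was at 484, 529 and 572 FPKM with PD325901 and 1669, 3137 and 3253 FPKM with RAD001 (log2 difference -2.29 ± 0.24, adjusted p = 1.6e-05 by limma). Prdx1, a peroxiredoxin, was at 873, 746 and 799 FPKM against 3218, 3878 and 3661 FPKM (log2 difference -2.15 ± 0.21). Slc7a11, the cystine transporter that is also an ATF4 target, was at 1.14, 2.09 and 2.66 FPKM against 21.6, 40.9 and 40.5 FPKM (log2 difference -3.55 ± 0.37). RAD001 replicate 1 was the lowest RAD001 library for all 3 genes. Txnrd1 and Nqo1, reductases of the same response, differed by -1.54 and -1.99. Nfe2l2, which encodes NRF2 itself, was not called at -0.01, a gene picked out with its value known.

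Of 33 lysosome and TFEB target genes 19 were higher with PD325901 and 6 higher with RAD001, or 3 after quantile normalization (median 0.39). The sulfatase gene Sgsh was higher with PD325901, at 20.0, 17.3 and 17.6 FPKM against 5.99, 5.68 and 6.04 FPKM (log2 difference 1.48 ± 0.11). Tfeb, the factor that drives lysosomal genes and is restrained by mTOR, was at 41.3, 39.2 and 37.3 FPKM with PD325901 and 25.2, 23.9 and 22.0 FPKM with RAD001, with DMSO below both (log2 difference 0.71 ± 0.09). Its relative Mitf (-1.07) and the cathepsin gene Ctsl, at 353, 248 and 274 FPKM against 1532, 1911 and 1781 FPKM (log2 difference -2.58 ± 0.18), were higher with RAD001. Among LXR targets and cholesterol efflux genes 8 of 15 were higher with PD325901 and 2 higher with RAD001 (median 0.46). Apoe, apolipoprotein E, was at 929.5, 373 and 372 FPKM against 20.2, 83.9 and 83.4 FPKM, a wide spread in both groups (log2 difference 3.25 ± 0.63, adjusted p = 0.00132 by limma). Apoc2, Mylip, a ubiquitin ligase, and Npc1, a lysosomal cholesterol exporter, differed by 1.88, 1.28 and 0.62. Ch25h, cholesterol 25-hydroxylase, was the largest exception (log2 difference -2.45 ± 0.23).

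Other metabolic lists were mixed. Oxidative phosphorylation had 15 of 43 subunit genes higher with PD325901 and 3 higher with RAD001 (median 0.18), with differences from -0.70 to 0.59. That count was 30 after quantile normalization, 6 without PD325901 replicate 1 or RAD001 replicate 3, and 8 without PD325901 replicate 3. Succinate dehydrogenase genes Sdha and Sdhd differed by 0.39 and 0.59, and the cytochrome c gene Cycs by -0.70. In glycolysis and hypoxia 10 of 28 were higher with RAD001 and 4 higher with PD325901, which became 10 higher with PD325901 with replicate 1 left out of every group and 2 without any single PD325901 library. The glucose transporter gene Slc2a1 was at 19.0, 20.2 and 23.4 FPKM against 123, 108 and 99.7 FPKM (log2 difference -2.35 ± 0.25), and the glycolytic enzyme genes Pgk1, Pkm2 and Hk3 differed by -1.53, -0.72 and -1.10. Pfkfb3, which makes the activator of phosphofructokinase, was higher with PD325901 (log2 difference 0.89 ± 0.07). Fatty acid synthesis had 6 of 15 higher with RAD001 and 2 with PD325901 (3 higher with RAD001 without RAD001 replicate 1, and 1 higher with PD325901 in each leave-one-out fit except that without RAD001 replicate 3), with the regulator Srebf1 at -0.82 and the acyl-CoA synthetase genes Acsl4 and Acsl1 at -2.06 and 0.76. Sterol synthesis had 4 of 23 higher with RAD001 and 3 with PD325901, or 10 with PD325901 with replicate 1 left out of every group. The reductase gene Dhcr7 differed by 1.21.

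Amino acid genes did not share a direction. In the ATF4 list 7 of 20 tested were higher with PD325901 and 5 higher with RAD001. The amino acid transporter genes Slc38a2 and Slc1a5 were higher with RAD001 by -1.21 and -0.89, and the stress genes Sesn2 and Pck2 higher with PD325901 by 0.71 and 1.03. Of 12 serine, glycine and folate enzymes tested, 3 were higher with RAD001 and 2 with PD325901, or 5 with PD325901 with replicate 1 left out of every group 4 without PD325901 replicate 1, and 1 without PD325901 replicate 2, PD325901 replicate 3 or RAD001 replicate 3. Psat1, of serine synthesis, was at 7.20, 8.77 and 9.81 FPKM against 26.2, 24.5 and 20.9 FPKM with DMSO above both (log2 difference -1.38 ± 0.18).

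Of 31 mitosis genes tested 13 were higher with PD325901 and 0 higher with RAD001 (median 0.76). Mki67, the proliferation antigen, was at 8.35, 11.1 and 12.2 FPKM with PD325901 and 4.82, 3.20 and 3.14 FPKM with RAD001, and at 14.3 ± 0.896 FPKM (SD, n = 3) with DMSO, above both (log2 difference 1.30 ± 0.23, adjusted p = 0.000748 by limma). The centromere histone gene Cenpa, the separase gene Espl1, the kinesin gene Kif22 and the checkpoint kinase gene Bub1b differed by 1.03, 0.97, 0.90 and 0.79, each with DMSO above both. The count moved with single libraries, to 27 without RAD001 replicate 1, 5 without RAD001 replicate 2 or 3, 6 without PD325901 replicate 2 or 3, 30 with replicate 1 left out of every group and 23 with a replicate block, while the median stayed between 0.38 and 1.07 over all settings. DNA replication had 5 of 35 higher with PD325901 and 1, the clamp gene Pcna, higher with RAD001, against 21.2% and 29.4% of all genes. The median of 0.26 ran from 0.14 without RAD001 replicate 3 and 0.16 without RAD001 replicate 2 to 0.46 without RAD001 replicate 1 and 0.49 with replicate 1 left out of every group. The count higher with PD325901 was 11 without RAD001 replicate 1, 3 without RAD001 replicate 2, PD325901 replicate 2 or PD325901 replicate 3, and 24 with replicate 1 left out of every group. Rfc2, a subunit of the clamp loader, was at 35.6, 39.2 and 38.6 FPKM against 22.0, 20.1 and 19.5 FPKM (log2 difference 0.85 ± 0.09).

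Regulators of the cell cycle divided. Of 20 cyclins, CDKs and inhibitors tested 9 were higher with RAD001 and 6 higher with PD325901. Cyclin D2 (Ccnd2) was at 1.09, 2.12 and 2.35 FPKM with PD325901 and 15.7, 15.8 and 13.4 FPKM with RAD001, with DMSO above both (log2 difference -2.51 ± 0.19). The CDK inhibitor gene Cdkn2b was at 2.44, 1.16 and 1.51 FPKM against 47.9, 27.4 and 21.9 FPKM (log2 difference -3.58 ± 0.35), so that D cyclins and an inhibitor of their kinases were higher with the same drug. The factors E2f3 and E2f2 differed in opposite directions, by -1.07 and 1.14. In the BCL2 family 8 of 16 were higher with RAD001 and 5 higher with PD325901. The survival genes Bcl2l1, at 11.7, 11.1 and 11.7 FPKM against 91.4, 82.5 and 74.8 FPKM (log2 difference -2.74 ± 0.11, adjusted p = 2.1e-08 by limma), and Bcl2, at 0.320, 0.916 and 0.763 FPKM against 10.7, 7.87 and 8.21 FPKM (log2 difference -2.58 ± 0.19), were higher with RAD001. The death-promoting genes Bmf and Bad were higher with PD325901 by 1.50 and 0.85. Bcl2a1a, a survival gene with near-identical copies that make its assignment uncertain, differed by -1.31.

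Genes of the RAS, RAF, MEK and ERK pathway itself had no common direction. Of 30 tested 11 were higher with RAD001 and 10 higher with PD325901, against 29.4% and 21.2% of all genes (median -0.13). Nras was at 27.9, 24.9 and 26.0 FPKM with PD325901 and 38.3, 36.6 and 34.8 FPKM with RAD001 (log2 difference -0.46 ± 0.07, adjusted p = 0.000367 by limma), and the table has 1 value per symbol, with none for the NRASG12V allele alone. Map2k1 differed by -0.44, whereas Map2k2 was not called at -0.21. Mapk3, which encodes ERK1, was higher with PD325901 (log2 difference 0.39 ± 0.10). Rasa2, a protein that switches RAS off, was the widest at 1.06, 1.35 and 1.40 FPKM against 13.5, 15.3 and 14.3 FPKM (log2 difference -2.76 ± 0.11). The RAS inhibitor neurofibromin (Nf1) and the ERK-activated kinase gene Rps6ka3 were higher with RAD001 by -0.86 and -1.02, and Rasa3 and the RAP activator gene Rasgrp2 higher with PD325901 by 0.92 and 1.47.

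Of 36 PI3K and mTOR pathway components 9 were higher in each direction, against 21.2% of all genes with PD325901 and 29.4% with RAD001. With replicate 1 left out of every group 15 were higher with PD325901. Fkbp1a, whose product binds RAD001, was at 82.0, 75.2 and 73.2 FPKM with PD325901 and 167, 146 and 138 FPKM with RAD001, with DMSO between (log2 difference -0.96 ± 0.10, adjusted p = 2.0e-05 by limma). Raptor (Rptor) differed by -0.74, while Mtor and Pik3cd were not called at -0.21 and -0.03. The RAG GTPase genes Rragc and Rragd and the mTOR subunit gene Mlst8 were higher with PD325901 by 0.76, 1.47 and 0.94. FOXO targets and insulin feedback genes had 10 of 27 higher with PD325901 and 7 higher with RAD001, among them Tsc22d3 (2.01), Klf4 (1.71) and Sesn1 (1.54) in the first direction and the receptor gene Igf1r (-1.36) in the second.

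Receptors of growth factors and STAT5 feedback genes had 10 of 27 higher with PD325901 and 8 higher with RAD001, against 21.2% and 29.4% of all genes. The shared beta chain of the GM-CSF receptor, the receptor of the factor in the medium, is encoded by Csf2rb, which was at 142, 173 and 174 FPKM with PD325901 and 693, 536 and 508 FPKM with RAD001 (log2 difference -1.82 ± 0.14). Its mouse paralogue Csf2rb2, close enough in sequence to share reads, differed by -2.19. Gadd45b, a stress gene, was higher with PD325901 (log2 difference 2.44 ± 0.21), and Id1, unlike its relative Id3, higher with RAD001 (log2 difference -1.62 ± 0.16). Of the MLL fusion, HOXA and stem cell genes 21 of 31 were tested, 6 were higher with RAD001 and 3 higher with PD325901, against 29.4% and 21.2% of all genes. Hoxa9 and Meis1, main targets of the MLL-AF9 fusion, were not called at 0.00 and -0.05 and were picked out with their values known. Bmi1, a Polycomb gene, was higher with RAD001 (-0.81). Interferon response genes were called in few cases, 5 of 31 higher with PD325901 and 4 higher with RAD001, against 21.2% and 29.4% of all genes. Their median of 0.15 changed sign with single libraries, to -0.15 without RAD001 replicate 1, and was 0.37 without RAD001 replicate 3. The RAD001 count was 10 with replicate 1 left out of every group and 8 without RAD001 replicate 1. The PD325901 count was 3 without RAD001 replicate 1 or without any single PD325901 library. Ifit2 and Ifit3 were higher with PD325901 by 2.29 and 1.91, and Ifitm3, Ifitm1 and Usp18 higher with RAD001 by -1.34, -2.08 and -1.03. RAD001 replicate 1 stood apart for Ifit2, at 1.85, 10.6 and 9.25 FPKM.

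Markers of other lineages were few above the filter. T and NK cell markers had 2 of 3 tested higher with PD325901. Without PD325901 replicate 2 or PD325901 replicate 3 only 1 passed the filter, and it was called higher with PD325901. Cd3d, Cd3g and Cd5 reached 0.837, 0.964 and 0.761 FPKM with RAD001, so these 3 passed the filter through the PD325901 libraries. The filter thus favoured that direction, and no result is drawn from the count. The sum over the list ran from 6.26 to 13.7 FPKM with PD325901 and from 0.754 to 5.21 FPKM with RAD001. The B cell marker gene Cd79b was at 7.95, 6.71 and 6.62 FPKM against 1.94, 1.13 and 0.897 FPKM (log2 difference 1.82 ± 0.23). Sums of stromal and endothelial markers were 8.35 to 11.98 FPKM with PD325901 and 7.38 to 9.17 FPKM with RAD001, mostly Pecam1, which was not called (0.20). The most abundant genes that differed by less than 0.1 were the ferritin light chain gene Ftl1, at 19191, 13066 and 13674 FPKM with PD325901 and 14383, 16025 and 14254 FPKM with RAD001, Tmsb4x, which encodes the actin-binding thymosin beta 4, and the myeloid genes Cyba, Fcer1g and Alox5ap. For these 5 the groups overlapped, with differences from -0.09 to 0.06.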

How the data were processed

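The data were RNA-seq of total RNA. The authors deposited 1 table with an FPKM value for each of 23234 gene symbols and 12 libraries, made with TopHat2 2.0.4 and Cuffdiff on mm9, per the submitters' processing notes. Which annotation, which Cuffdiff version and what scaling across libraries were used is not given in the sources used here. From it, log2(FPKM + 1) of the 10258 genes averaging 1 FPKM or more in the 6 libraries compared was fitted in R 4.3.3 with limma 3.58.1, as 1 model of 4 group means over all 12 libraries (8 residual degrees of freedom) with a trended eBayes. Tests were two-sided, adjusted by Benjamini-Hochberg over all genes tested, with a threshold of 0.05. FPKM values give no read counts, so depth was unknown.

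The genes, the 43 lists and the tests were chosen with earlier results of these data known. Named genes were the 15 largest differences each way with an adjusted p under 0.05, no overlap and a higher group at 5 FPKM or more, up to 5 members per list with the smallest adjusted p (failing that, the 2 most abundant), 12 pathway genes, and the 5 most abundant genes with a difference under 0.1. Lineage markers given as ranges and genes given as the exceptions of a list were picked out with their values known. A few genes that meet these rules are left out of the text. A list is described by its counts and median, with no test. The procedure was tested on simulated data.

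Deviations from the group mean of libraries with the same replicate number correlated at r = 0.343, 0.154 and 0.146, all above 0.1, so a replicate block was fitted as the paired alternative. The labels name no pairs, and replicate 2 of PD325901 correlated more with replicate 3 of RAD001 (0.281), as did 3 with 2 (0.289). The other alternatives were 0.1 or 5 FPKM added, no filter or one at 5 FPKM, quantile normalization, median-ratio scaling, a fit of the 2 groups alone, no trend, library weights, each library left out in turn, and replicate 1 of every group left out.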

Additional observations from a re-analysis of the deposited data

How the results depend on the processing

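Over the 17 alternatives the number of genes called ran from 4062 (mean of at least 5 FPKM) to 7368 (library weights), against 5193, and 0 calls reversed. These were 54.2% of 7492 genes tested and 71.8% of 10258, against 50.6%. The lowest share was that with no filter, 36.8% of 15918 genes. Leaving out 1 library at a time gave 4414 to 4870 calls and lost 628 to 810 of the main calls. The replicate block gave 5591 calls and changed no call of a named gene. The number of differences of at least 1 on the log2 scale moved from 1226 to 669 with 5 FPKM added, a setting that shrinks the difference of low genes by its construction. Quantile normalization turned 2 abundant genes that were not called, Fcer1g from -0.05 to 0.36 and Alox5ap from -0.09 to 0.35, and took the share of calls higher with PD325901 from 41.9% to 50.7%. The cause was not tested. Of 216 named genes 205 were called, 199 of them in every alternative that tested them, though the 5 FPKM filter tested 184 of the 216; Phgdh, Mthfd1, Acsl3, Prim2, Pcna and Cd22 were lost in some. Counts of small differences moved most: with library weights 29 mitosis and 25 DNA replication genes were higher with PD325901, against 13 and 5. Depth was unknown, so precision from counting cannot be given. The 3 libraries per group limit the precision, and a listed 0 cannot be told from a failed estimate.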
